A study of Mus musculus with 9 samples.

Results

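The second of 2 hairpins against Apela was compared with a luciferase control hairpin in mouse embryonic stem cells. The comparison took 6 of the 9 arrays of the series: the 3 arrays labelled shApela #2 (shApela_2 here) and the 3 labelled shLuc, chosen by their titles. All cells were of the R1E line, untreated with any drug, and their medium held leukemia inhibitory factor (LIF, 1000 units/ml) and 15% fetal bovine serum. Each group was transduced, so the controls carried a vector and a hairpin too, and the 3 other arrays of the series carried a first Apela hairpin (shApela_1). Nothing in the labels says that the 3 arrays of a group came from separate cultures, and p-values then measure only the spread between these arrays, which may be technical. No hairpin sequence, selection step or time after transduction was given.

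Apela (also called Elabela or Toddler) is transcribed in pluripotent cells and encodes a small secreted peptide that signals through the apelin receptor. The series title presents the transcript itself as a regulatory RNA in a feedback loop with p53, the transcription factor that drives cell cycle arrest and apoptosis after DNA damage. A short hairpin RNA is cut by Dicer into a small RNA that guides an Argonaute protein to matching transcripts. The comparison asks what else differed when this hairpin lowered Apela.

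Expression was measured on Affymetrix arrays as log2 values after RMA normalization, and 19938 genes were tested with limma. A call means a Benjamini-Hochberg adjusted p under 0.05 over all genes. Differences are shApela_2 minus shLuc on the log2 scale, with limma's standard error (SE) or 95% interval. In bulk RNA, fewer cells of a type and less RNA per cell cannot be told apart.

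The third shApela_2 array stood apart in the spread of its values. Its interquartile range over all probe sets was 3.29, against 3.50 to 3.59 on the other 8 arrays of the series. Over the 6646 dimmest genes its median difference from the shLuc mean was 0.12, and over the 6646 brightest it was -0.06. The first and second arrays had 0.00 and 0.01 over the dimmest genes, and -0.01 each over the brightest. Calls and list medians are therefore given with all arrays and without this one, as is the difference of any named gene that moved by more than 1.5 times. Other counts are for all arrays unless stated. Pluripotency factors were measured at high levels on every array: Pou5f1 lay between 12.00 and 12.18 in shLuc and between 12.05 and 12.12 in shApela_2, and Nanog between 12.24 and 12.32 in shLuc and between 12.26 and 12.33 in shApela_2.

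**Figure D1:**
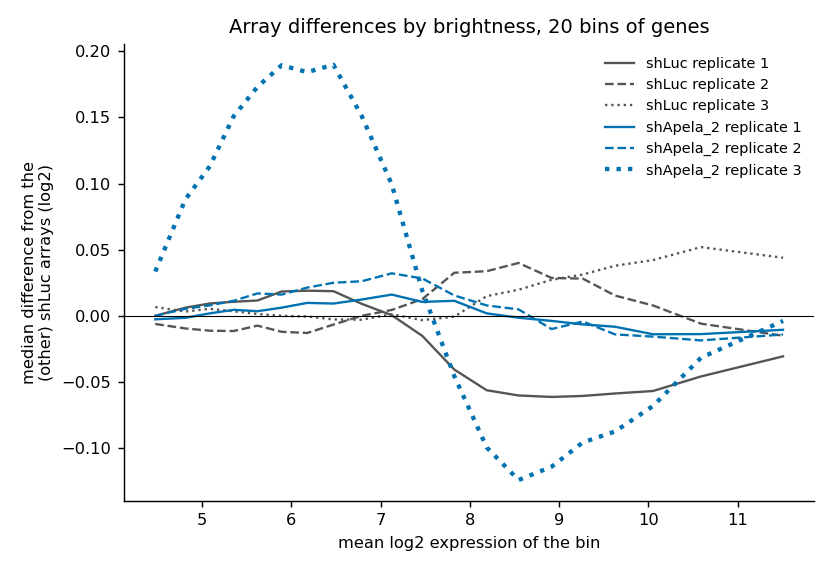
Median difference of each array from the shLuc arrays (y axis, log2; for a shLuc array, from the other two shLuc arrays) over 20 bins of genes ordered by mean log2 expression (x axis). The third shApela_2 array (thick dotted line) reached 0.19 among dim genes and -0.12 among bright ones, while the first and second shApela_2 arrays stayed near 0. The first shLuc array reached -0.06 among bright genes.

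Apela itself fell. Its log2 level was 11.40, 11.31 and 11.19 on the shLuc arrays and 9.79, 9.79 and 9.56 on the shApela_2 arrays. Every hairpin array lay more than 1 log2 unit below every control array. The difference was -1.58 (SE 0.08, adjusted p = 0.000219), which left 33.4% of the control signal. Without the third array it was -1.50 (adjusted p = 0.000436), or 35.3%. The other ligand of the receptor, Apln, differed by 0.06 (95% interval -0.02 to 0.15, adjusted p = 0.68), and Aplnr, the receptor gene, by 0.15 (-0.07 to 0.38, adjusted p = 0.68). For Aplnr the third array stood alone: the shApela_2 arrays measured 6.50, 6.50 and 6.90 and the shLuc arrays 6.50, 6.44 and 6.50, and the difference was 0.02 without it.

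Beside Apela, only 2 genes were called with all arrays, and both fell. In all, 3 of 19938 genes passed, or 0.015% of those tested, and 0 of them rose. At an unadjusted p under 0.05 there were 1151 genes, 5.77% of those tested, of which 597 were higher and 554 lower. Without the third shApela_2 array there were 1021, of which 566 were higher and 455 lower. Both sets shared 601 genes with the same sign. The plot of all genes by difference and p shows Apela, Gorasp2 and Mapre1 apart from the rest.

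**Figure D2:**
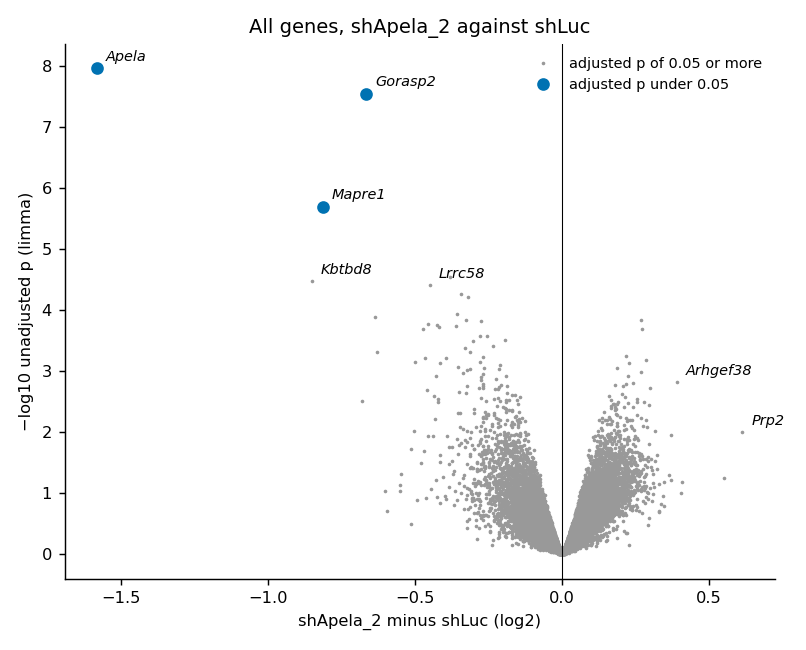
Each point is a gene, with the difference between shApela_2 and shLuc on the x axis (log2) and −log10 of the unadjusted limma p on the y axis. The 3 large points are the genes with an adjusted p under 0.05, Apela at -1.58, Mapre1 at -0.81 and Gorasp2 at -0.67.

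Gorasp2 encodes a Golgi reassembly and stacking protein (GRASP55) that tethers Golgi cisternae. It measured 10.78, 10.82 and 10.84 on the shLuc arrays and 10.15, 10.18 and 10.12 on the shApela_2 arrays. The groups were separated by far more than their spread, which had an SD of 0.03 in each. The difference was -0.67 (SE 0.04, adjusted p = 0.000284), or 63.0% of the control signal, and it was -0.65 without the third array (adjusted p = 0.000827). On the shApela_1 arrays the gene measured 10.80, 10.84 and 10.83, in the range of the controls, and the difference between hairpins was -0.68 (95% interval -0.76 to -0.59, adjusted p = 0.000503). Gorasp1, its paralog of the cis-Golgi, differed from shLuc by 0.08 (-0.02 to 0.18, adjusted p = 0.68).

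Other genes of the Golgi did not pass. Of 30 measured genes of Golgi stacking and golgins, Gorasp2 was the 1 called, 11 were higher and 19 lower, and the median difference was -0.03 (-0.01 without the third array). Over all genes 57.5% were higher and the median was 0.02 (53.2% and 0.00 without the third array). Of the 30 Golgi genes 27 were brighter than the median probe set. Among the 6646 brightest genes 68.9% were lower with all arrays and 56.1% without the third. After Gorasp2 the smallest p belonged to Mgat1, an enzyme of N-glycan branching, at 0.16 (adjusted p = 0.68) and 0.10 without the third array.

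Mapre1 encodes EB1, which binds growing microtubule ends and recruits other proteins there. Its level was 10.01, 10.06 and 10.16 in shLuc and 9.37, 9.32 and 9.11 in shApela_2. The lowest control array lay above the highest hairpin array by more than the range of either group. The fall was -0.81 (SE 0.07, adjusted p = 0.0134), to 56.9% of the control signal, and -0.73 without the third array (adjusted p = 0.00791). With shApela_1 it measured 10.03, 10.05 and 10.15, and the hairpins differed by -0.81 (95% interval -0.98 to -0.64, adjusted p = 0.00457). The call of Mapre1 against shLuc ended in the fit of only the 6 arrays compared (adjusted p = 0.235) and without shLuc array 1 (0.0805), 2 (0.124) or 3 (0.107), shApela_1 array 1 (0.0557) or 2 (0.0596), or shApela_2 array 2 (0.0756), while its difference stayed between -0.87 and -0.73 when any 1 array was left out.

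The paralogs of Mapre1 were not called. Mapre2 differed by -0.03 (95% interval -0.16 to 0.11, adjusted p = 0.889; -0.01 without the third array) and Mapre3 by 0.14 (-0.03 to 0.30, adjusted p = 0.68). Among 27 plus-end proteins, 26 of them brighter than the median probe set, Mapre1 was the 1 called, with 9 higher and 18 lower and a median of -0.02. Without the third array 17 were higher and 10 lower, with a median of 0.03, and after a second quantile normalization the median was 0.02. Slain1, a partner of microtubule polymerases, had the next smallest p at -0.22 (adjusted p = 0.68) and measured -0.12 without the third array.

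Leaving out the third shApela_2 array gave 6 calls, or 0.0301% of the genes tested: the same 3, and Lrrc58, Arhgef38 and Meiob. Lrrc58, a leucine-rich repeat gene, measured 10.17, 10.14 and 10.19 in shLuc and 9.81, 9.77 and 9.58 in shApela_2. All 3 hairpin arrays were lower than all controls, the third most of all. The difference was -0.45 with all arrays (SE 0.06, adjusted p = 0.13) and -0.38 without the third (SE 0.03, adjusted p = 0.0182). It differed from shApela_1 as well, by -0.45 (adjusted p = 0.0155).

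Arhgef38 was on the higher side. It measured 7.35, 7.37 and 7.32 in shLuc and 7.86, 7.85 and 7.50 in shApela_2, so that the third array was above the controls but far below the other two. The difference was 0.39 with all arrays (SE 0.09, adjusted p = 0.564) and 0.51 without the third (SE 0.03, adjusted p = 0.00326). A second probe set of the gene gave 0.38 with all arrays (SE 0.06).

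Meiob, which binds single-stranded DNA in meiotic recombination, was called only when that array was left out. Its levels lay between 4.81 and 5.01 in shLuc and were 5.68, 5.55 and 4.58 in shApela_2. The first and second hairpin arrays lay above all controls and the third below all of them. The difference was 0.33 with all arrays (95% interval -0.22 to 0.88, adjusted p = 0.686) and 0.67 without the third (0.52 to 0.83, adjusted p = 0.0397). These levels are below the median of all probe sets, 7.06.

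**Figure D3:**
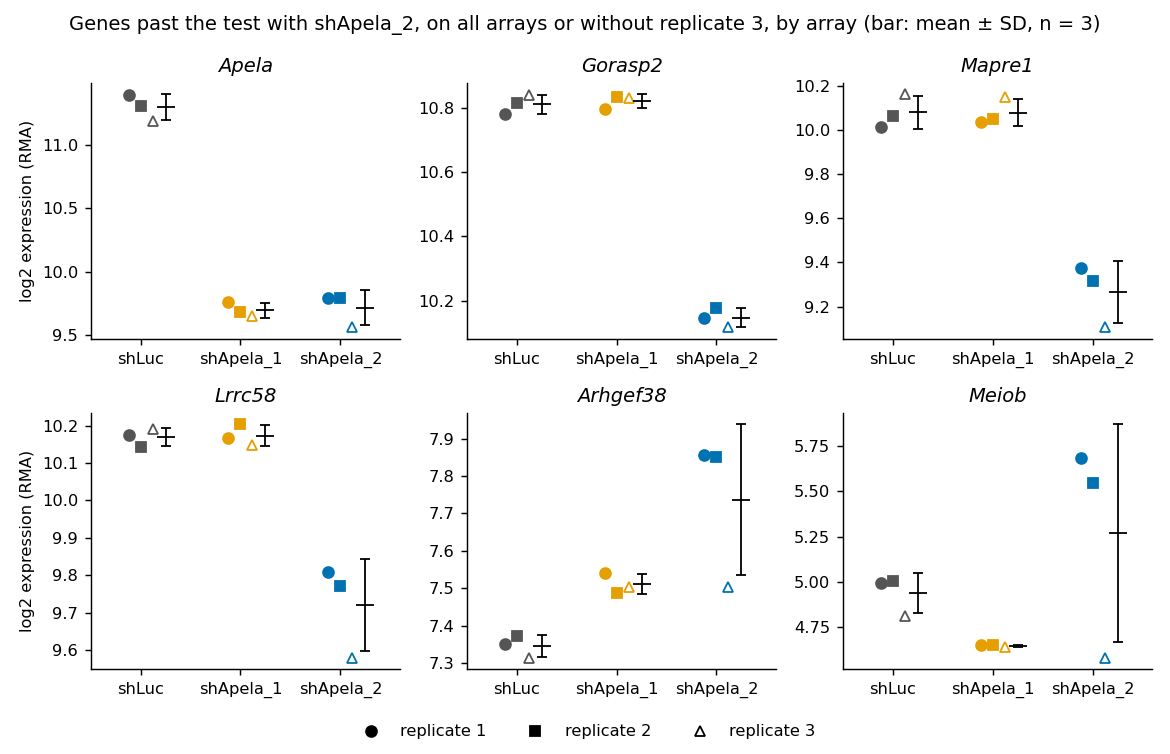
Log2 expression (y axes) on each array of the 3 groups for the 6 genes called with all arrays or without the third shApela_2 array, with group means and SD (bars, n = 3). Apela is low with both hairpins, Gorasp2, Mapre1 and Lrrc58 are low with shApela_2, and the third shApela_2 array (open triangle) lies apart from the other two for Arhgef38 and Meiob.

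Further genes were lower on all 3 shApela_2 arrays than on all shLuc arrays without passing the test. Groups did not overlap for 927 genes on the lower side (4.65% of those tested) and for 1133 on the higher side (5.68%). With 3 arrays against 3, random order alone gives shares of about this size, so these counts do not show a change. Among genes with an unadjusted p under 0.01 and no overlap, 138 were lower and 76 higher. With all arrays the balance leaned further down at the smallest p: of 19 genes with an adjusted p under 0.25, 17 were lower and 2 higher. These splits are for all arrays only. Among the 6646 brightest genes 68.9% were lower with all arrays and 56.1% without the third. Kbtbd8, a substrate adaptor of a cullin ubiquitin ligase, Lrrc58 and Palld came next after the 3 calls (adjusted p = 0.13 for each). Palld, an actin-associated protein, was singled out after its values were seen. It differed by -0.38 and had 7.25, 7.32 and 7.33 in shLuc and 6.84, 6.98 and 6.94 in shApela_2.

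Among genes with an unadjusted p under 0.01 and no overlap, Kbtbd8 had the largest difference after Apela. It measured 8.46, 8.52 and 8.75 in shLuc and 7.77, 7.89 and 7.52 in shApela_2, a difference of -0.85 (95% interval -1.10 to -0.60) that was -0.75 without the third array (adjusted p = 0.14). Alg14, a subunit of an enzyme that builds the lipid-linked sugar chain for N-glycosylation, measured 8.94, 9.08 and 9.27 in shLuc and 8.51, 8.43 and 8.44 in shApela_2 (-0.63, adjusted p = 0.212). Ddah1, which degrades an inhibitor of nitric oxide synthase, measured 9.67, 9.69 and 9.88 against 8.98, 9.04 and 9.33 (-0.63, adjusted p = 0.361). These 3 genes were low on every shApela_2 array, and none passed the test. Fam136a (-0.68, adjusted p = 0.669), the membrane protein gene Mmd (-0.51, adjusted p = 0.68) and Wwc2, of the Hippo pathway (-0.50, adjusted p = 0.402), were also among the 10 largest falls by that rule. Cyb5r4, a cytochrome b5 reductase gene (-0.47, adjusted p = 0.212), completed the 10. A second probe set of Cyb5r4 measured -0.43 (SE 0.11).

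By the same rule, and with predicted genes left out, the 10 largest differences on the higher side were smaller. Meiob (0.33), Notum (0.32) and Egr1 (0.30) did not meet the rule. Prp2, a proline-rich protein gene, led with 0.61 (95% interval 0.19 to 1.04, adjusted p = 0.68), and the third shApela_2 array at 9.47 was well above the first and second at 8.77 and 8.67. Without that array the difference of Prp2 was 0.36. The cytokine gene Tnf (0.32), the retinol dehydrogenase gene Rdh9 (0.27), Teddm1b (0.28) and Gsg1l (0.28), which encodes an auxiliary subunit of AMPA receptors, were likewise highest on the third array. Without that array they measured 0.20, 0.20, 0.20 and 0.19. Rfk, the riboflavin kinase that makes flavin mononucleotide, was even across arrays at 10.26, 10.14 and 10.23 against 9.91, 9.95 and 9.96 in shLuc (0.27, SE 0.04, adjusted p = 0.212). Septin1, a filament-forming GTPase, had 10.75, 10.74 and 10.79 against 10.43, 10.48 and 10.54 (0.27, SE 0.04, adjusted p = 0.212). Dpysl3, a collapsin response mediator (0.29, adjusted p = 0.402), and the Ras exchange factor gene Rasgef1a (0.29, adjusted p = 0.68) completed the 10 with Arhgef38.

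These genes were also compared with shApela_1. The 10 falls named by that rule included 6 with a called difference between hairpins: Gorasp2, Mapre1, Kbtbd8 (-0.79, adjusted p = 0.0175), Alg14 (-0.55, adjusted p = 0.0464), Ddah1 (-0.87, adjusted p = 0.0162) and Cyb5r4 (-0.53, adjusted p = 0.021). Among the 10 rises named by it 0 had one, against 189 of 19938 over all genes (0.948%, or 2571 genes at an unadjusted p under 0.05). The genes were chosen on the same shApela_2 arrays. The 189 became 19 without the first shApela_1 array and 20 without the second, and Alg14 did not pass without the third shApela_2 array (adjusted p = 0.0882). Without that array Arhgef38, one of the rises, had a called difference between hairpins (0.34, adjusted p = 0.00811). Rfk measured 0.24, Septin1 0.31 and Dpysl3 0.33 in shApela_1 minus shLuc, beside 0.27, 0.27 and 0.29 in shApela_2. Both comparisons share the shLuc arrays, so equal signs carry no weight. The hairpins differed by 0.03 in Rfk (95% interval -0.07 to 0.12), by -0.04 in Septin1 (-0.14 to 0.07) and by -0.05 in Dpysl3 (-0.17 to 0.08).

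**Figure D4:**
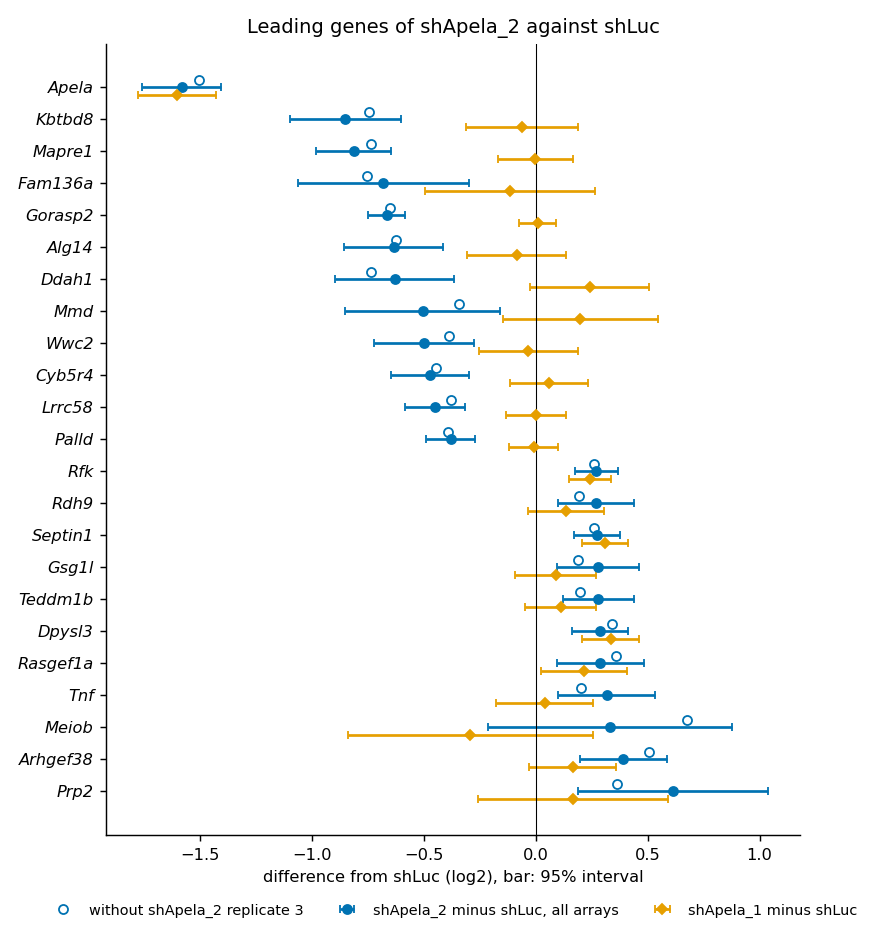
Difference from shLuc (x axis, log2, with 95% intervals as bars) for the 10 largest falls and rises of shApela_2 with an unadjusted p under 0.01 and no overlap. Genes called without the third shApela_2 array are also shown. Filled circles show shApela_2 with all arrays, open circles shApela_2 without the third shApela_2 array, and diamonds shApela_1. For Gorasp2, Mapre1 and Lrrc58 the shApela_1 value lies near 0, and for Apela the intervals of both hairpins overlap.

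For most genes the interval of the measured difference was narrow. The median SE over genes was 0.06, and the 95% interval of the difference lay inside 1.5-fold in both directions for 98.3% of genes. These are intervals of single genes and do not hold jointly. They include the 6646 dimmest genes, at mean levels of 3.97 to 6.23. Whether those genes were detected was not tested, and for undetected RNA a narrow interval does not bound a change. A gene with the median SE would have needed a difference of 0.59 to pass at the rank of Mapre1. Only 10 genes differed by more than 1.5-fold, 9 lower and 1 higher, and 1 of them, Apela, by more than 2-fold. Without the third array 10 genes were again past 1.5-fold, 7 of them past it in both cases, and Prp2 was not among these.

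The gene lists that follow are described by counts and medians, with limma's calls and adjusted p over all genes. Targets of p53 were not called. Of 37 measured targets 0 passed with all arrays or without the third, and 3 had an unadjusted p under 0.05 (2 higher, 1 lower), beside 5.77% of all genes. Cdkn1a and Bax, well-known p53 targets, were not analysed here. With all arrays 19 were higher and 18 lower, at a median of 0.00, and without the third array 29 were higher and 8 lower, at a median of 0.06. The median over the targets was 0.04 and 0.06 on the first and second arrays and -0.10 on the third. Sulf2, which trims sulfates from heparan sulfate, had the smallest p at -0.33 (95% interval -0.46 to -0.19, adjusted p = 0.327), followed by the adenylate kinase gene Ak1 at 0.21 (0.10 to 0.32, adjusted p = 0.638). The interval of every target but 1 of the 37 lay inside 1.5-fold. Mdm2, the ubiquitin ligase that degrades p53, measured -0.09 (-0.25 to 0.07), and Bbc3 and Pmaip1, which encode death-promoting BH3 proteins, 0.09 (-0.07 to 0.25) and 0.06 (-0.11 to 0.23). These 3 were picked for their roles, outside the rule for named genes.

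Apoptosis and DNA damage genes gave 0 calls as well. Over 27 genes of intrinsic apoptosis the median was -0.03 with 10 higher (0.02 and 16 higher without the third array), and each interval lay inside 1.5-fold. Their smallest p belonged to the survival gene Bcl2l2 at 0.19 and the BH3 gene Bad at 0.18 (adjusted p = 0.68 for each), which were 0.10 and 0.09 without the third array. In the DNA damage response 25 of 33 were lower, with a median of -0.03, and 18 of 33 without the third array, with a median of -0.01. All 33 were brighter than the median probe set. Among the 6646 brightest genes 68.9% were lower with all arrays and 56.1% without the third. A second quantile normalization put the median of the DNA damage list at 0.0036. Rpa1, which coats single-stranded DNA, measured -0.17 and the checkpoint kinase gene Chek1 -0.12 (adjusted p = 0.68 for each).

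Pluripotency genes differed little from the controls. Of 30 measured, 15 were higher and 15 lower, the median was -0.00 (0.02 without the third array), 0 passed, and every interval lay inside 1.5-fold. Pou5f1 differed by 0.00 (95% interval -0.13 to 0.14), Sox2 by -0.02 (-0.14 to 0.09) and Nanog by 0.02 (-0.07 to 0.10). Without the third array they measured 0.02, 0.03 and 0.04, and each changed sign under another scaling or without single arrays. Nr0b1 at 0.13 and Stat3, the effector of leukemia inhibitory factor, at -0.16 had the smallest p (adjusted p = 0.68 for each). Primed epiblast genes, which mark the state after implantation, had 14 of 20 higher and a median of 0.03 with all arrays, and 7 of 20 and -0.03 without the third. Zic2 at 0.18 and Etv4, a target of FGF signalling, at -0.26 led that list (adjusted p = 0.68 for each).

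Genes of S phase and DNA replication gave 0 calls, with 27 of 35 lower with all arrays and 24 of 35 without the third, at medians of -0.02 and -0.02. All 35 were brighter than the median probe set, and among the 6646 brightest genes 68.9% were lower with all arrays and 56.1% without the third. After a second quantile normalization the median was 0.0088, and without the third shLuc array 0.0089. Pola2, a subunit of the DNA polymerase alpha-primase complex, measured -0.22 (95% interval -0.32 to -0.12, adjusted p = 0.44) and the S phase cyclin gene Ccne2 -0.34 (-0.57 to -0.11, adjusted p = 0.68). In G2 and mitosis 20 of 34 were lower (median -0.01), and 10 of 34 without the third array (median 0.02). Their leads were the separase gene Espl1 at -0.12 (adjusted p = 0.68) and the condensin gene Ncapd2 at -0.08 (adjusted p = 0.696), which were -0.06 and -0.02 without the third array.

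Of 19 heat shock genes, 16 were lower with all arrays and 17 without the third, at medians of -0.03 and -0.04, and 0 were called. All 19 were also brighter than the median probe set. The median was -0.03, -0.02 and -0.04 on the 3 shApela_2 arrays, each against the same shLuc mean. Chordc1, a partner of the chaperone HSP90, measured -0.19 and the mitochondrial chaperonin gene Hspe1 -0.08 (adjusted p = 0.68 for each). The integrated stress and unfolded protein response had a median of -0.01 with 12 of 30 higher (0.01 and 17 without the third array), led by Edem1, of endoplasmic reticulum degradation, at -0.21 and Cebpb at 0.16 (adjusted p = 0.68 for each), which were -0.10 and 0.09 without the third array.

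Genes of the interferon response and of the small RNA machinery gave 0 calls. Both groups carried a vector and a hairpin, so a response of equal size in both would not show as a difference. Whether any such response was equal was not tested. Among 29 genes of the interferon and double-stranded RNA response, 19 were higher, at a median of 0.04 (17 and 0.01 without the third array), with 0 called. Of these 29 genes 12 were brighter than the median probe set. Among the 6646 dimmest genes 19.8% were lower with all arrays and 44.0% without the third. Ifitm3, an antiviral membrane protein gene, measured 0.17 (95% interval 0.07 to 0.26, adjusted p = 0.669) and Oas2, a sensor of double-stranded RNA, 0.23 (0.05 to 0.41, adjusted p = 0.68). The small RNA machinery had 12 of 19 lower with and without the third array, at medians of -0.04 and -0.02. Drosha, which cuts primary miRNAs, measured -0.16 and Ago2, the slicing Argonaute, -0.14 (adjusted p = 0.68 for each), the latter -0.08 without the third array.

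Metabolic and signalling lists had 0 calls. Brighter than the median probe set were 20 of 20 cholesterol, 17 of 20 immediate early and 29 of 31 hypoxia and glycolysis genes. The same held for 14 of 15 Nodal and 10 of 16 Wnt targets. Among the 6646 brightest genes 68.9% were lower with all arrays and 56.1% without the third. Several of the lists turned with the third array. Cholesterol synthesis had 14 of 20 lower and a median of -0.05 with all arrays, and 3 of 20 and 0.03 without it; its leads were Fdps at 0.09 (adjusted p = 0.68) and Cyp51 at -0.23 (adjusted p = 0.694), the latter at -0.00 without that array. Immediate early genes had 16 of 20 lower (-0.06) and then 6 of 20 (0.01), with Egr1 at 0.30 and Jund at -0.07 (adjusted p = 0.68 for each). Hypoxia response and glycolysis had 21 of 31 lower (-0.02) and then 15 of 31 (0.00), with Pfkp at 0.16 and Car9 at -0.06 (adjusted p = 0.68 for each). Nodal and TGF-beta targets had 8 of 15 lower (-0.03) and then 10 (-0.02), with the decoy receptor gene Bambi at -0.12 and Tgif1 at -0.07 (adjusted p = 0.68 for each), the latter -0.04 without the third array. Wnt targets had 11 of 16 higher (0.05) and then 8 (0.00), with Znrf3, which removes Wnt receptors, at -0.14 and the Wnt inhibitor gene Notum at 0.32 (adjusted p = 0.68 for each).

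Of 28 imprinted genes 19 were lower, at a median of -0.04, and 17 without the third array, also at -0.04, with 0 called. Nnat measured -0.19 and Peg12 0.17 (adjusted p = 0.68 for each), the latter 0.08 without the third array. In meiosis and the germline 23 of 31 were lower (-0.07) and 18 of 31 without the third array (-0.03), where Meiob was the 1 member called, upward. Ddx4, the germ cell RNA helicase, measured -0.32 (95% interval -0.47 to -0.17, adjusted p = 0.44) and the germ cell gene Dazl -0.29 (adjusted p = 0.68; -0.19 without the third array).

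Markers of other cell types that a stem cell culture can hold gave 0 calls in each of 6 lists. Their values moved with the third array: its median was 0.19 for primitive streak and mesoderm, 0.15 for primitive and definitive endoderm, 0.11 for fibroblast feeder, 0.10 for neuroectoderm and 0.07 for trophectoderm markers, against -0.02 to 0.04 on the first and second arrays. Brighter than the median probe set were 4 of 15 streak, 9 of 17 endoderm, 9 of 18 fibroblast, 6 of 14 neuroectoderm and 10 of 19 trophectoderm markers. Among the 6646 dimmest genes 19.8% were lower with all arrays and 44.0% without the third. Among the 6646 of middle brightness the shares were 38.7% and 40.3%. The part of that array's narrower spread in these shifts was not tested. Streak and mesoderm markers had 12 of 15 higher (0.10) and then 7 (-0.00) without it, led by Gsc at 0.10 and Eomes at -0.15. Endoderm markers had 12 of 17 higher (0.05) and then 11 (0.01), with the adaptor gene Dab2 at -0.26 (95% interval -0.42 to -0.10) and Hnf4a at 0.15 (0.06 without it). Neuroectoderm markers had 9 of 14 higher (0.04) and then 8 (0.00), with Six3 at 0.15 (0.05 without it) and Pax6 at 0.14. Trophectoderm markers had 10 of 19 higher in both cases (0.01 and 0.01), with Plet1 at -0.15 and Esx1 at 0.10. Fibroblast markers had 14 of 18 higher (0.04) and then 7 (-0.01), with the collagen gene Col3a1 at 0.22 (0.14 without it) and Tagln at -0.20. The largest difference of a fibroblast marker with all arrays was a fall of -0.55, at an unadjusted limma p above 0.05. Each lead marker had an adjusted p of 0.68.

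The list of markers of two-cell-like cells, a rare early-embryo-like state, turned most. All 6 measured markers were lower with all arrays (median -0.11), and 5 of 6 were higher without the third array (median 0.07). The median was 0.10 and -0.06 on the first and second arrays and -0.44 on the third. Usp17la measured -0.25 (95% interval -0.92 to 0.43, adjusted p = 0.777) and Gm5662 -0.13 (-0.49 to 0.22, adjusted p = 0.769), with wide intervals, and 0.07 and 0.08 without the third array, and 0 were called. The Zscan4 genes, Dux and Tcstv1, other markers of that state, were not analysed here.

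Across the 27 lists, 609 distinct genes were measured, and 3 of them passed: Apela, Gorasp2 and Mapre1, each in a list chosen with these results known. At an unadjusted p under 0.05 there were 14 higher and 24 lower, 6.24% of the list genes beside 5.77% of all genes, and no list had more than 4. List medians ran from -0.11 to 0.10 with all arrays and from -0.04 to 0.07 without the third. The sign of the median turned in 12 of the 27 when that array was left out, in 9 from lower to higher and in 3 from higher to lower. Scaling also turned medians near 0. A second quantile normalization did so for the DNA damage, pluripotency, S phase, G2 and mitosis, stress, plus-end, Nodal and trophectoderm lists, and median centring for the p53, primed epiblast, interferon, neuroectoderm, trophectoderm and fibroblast lists.

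**Figure D5:**
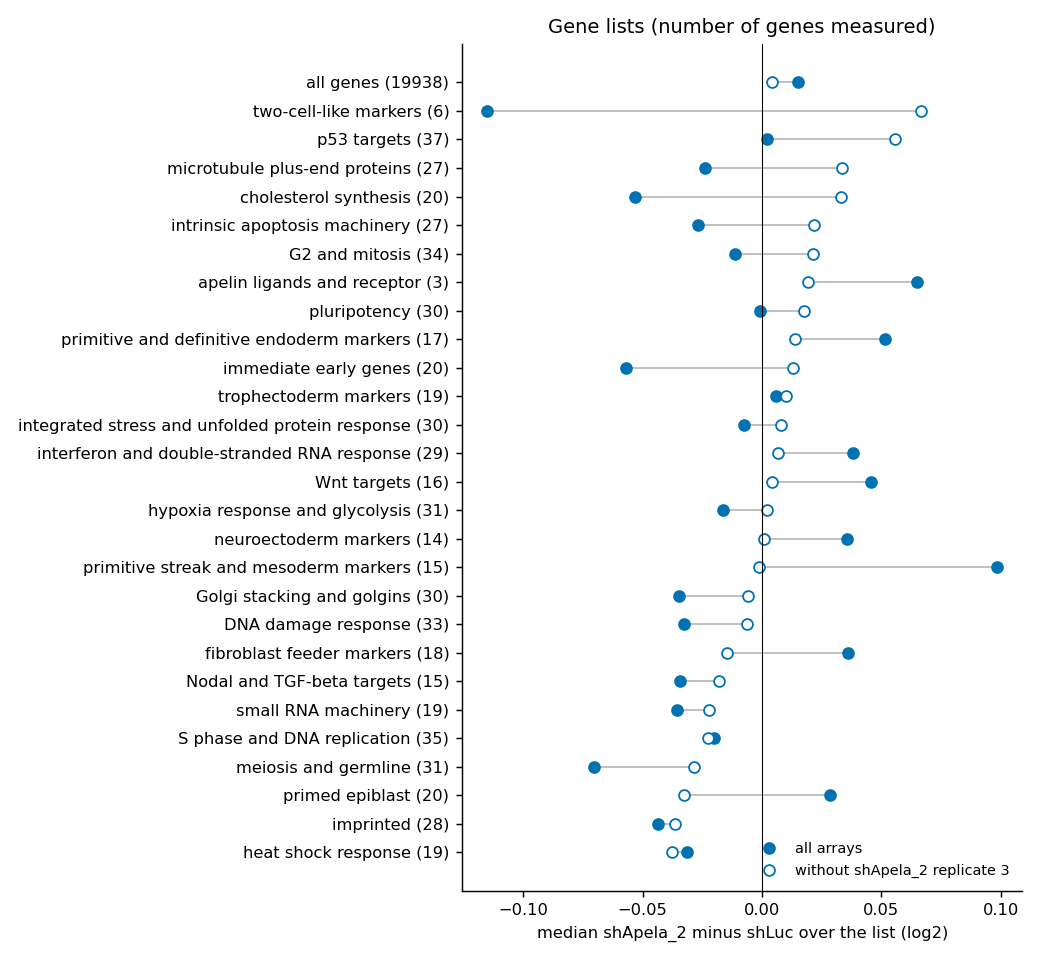
Median difference between shApela_2 and shLuc (x axis, log2) over the measured genes of each list (y axis, number of genes in brackets), with all arrays (filled) and without the third shApela_2 array (open). The medians without that array lie between -0.04 and 0.07, and 12 of the 27 lie on the other side of 0.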

How the data were processed

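The authors deposited log2 values for each probe set on each array, and the submitters' processing notes name RMA and Partek 6.6. No source used here names their settings or log base. Base 2 is taken from the values, which span the usual range of RMA on that scale. RMA usually includes quantile normalization, which brings the probe values of all arrays to a common distribution. The third shApela_2 array still had a narrower spread in the deposited values, and the origin of this was not tested. Of 28853 probe sets, 21775 had 1 gene symbol in the platform annotation, 1578 several and 5500 none, and each of 19938 genes was represented by its brightest probe set with a single symbol (998 genes had more than 1).

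Genes were tested with limma 3.58.1 in R 4.3.3 (lmFit and eBayes, default prior, two-sided, checked on simulated data) in 1 fit of all 9 arrays with 3 group means (6 residual degrees of freedom, 2.72 from the prior), adjusted by Benjamini-Hochberg over all genes. The number of arrays limits the precision. Named genes were every call with all arrays or without the third shApela_2 array, the 10 largest differences per side with an unadjusted p under 0.01 and no overlap, the 2 members of each of 27 gene lists with the smallest p, and Apela, Apln, Aplnr, Pou5f1, Sox2, Nanog and the Gorasp and Mapre families. Predicted genes, small RNAs and olfactory receptors were left out of the first 2 parts. Lists were described, not tested. Members and lists were chosen with earlier results of these data known. Alternatives were other fits, scalings, filters, probe set rules and leaving out each array.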

Additional observations from a re-analysis of the deposited data

Results flagged for a closer look

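The change with shApela_2 differed from that with shApela_1 for 10 genes named in the text, by limma's test of the difference between hairpins, adjusted over all genes. The differences (shApela_2 minus shApela_1) were -0.68 for Gorasp2 (adjusted p = 0.000503), -0.81 for Mapre1 (0.00457), -0.45 for Lrrc58 (0.0155), -0.79 for Kbtbd8 (0.0175), -0.55 for Alg14 (0.0464), -0.87 for Ddah1 (0.0162), -0.53 for Cyb5r4 (0.021) and -0.37 for Palld (0.0148). For Nnat the value was -0.48 (0.0158), with -0.19 in shApela_2 and 0.29 in shApela_1 against shLuc, and for Bambi it was -0.34 (0.0496), with -0.12 and 0.23. These genes were chosen for their size or p against shLuc, which shares the shApela_2 arrays with this test. Alg14 (adjusted p = 0.0882) and Bambi (0.0846) did not pass without the third shApela_2 array, while Arhgef38 (0.34, adjusted p = 0.00811) and Meiob (0.97, adjusted p = 0.0049) passed without it, both higher with shApela_2.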

How the results depend on the processing

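Apela and Gorasp2 were called in each of the 17 alternative settings run for them, and 1351 of 1363 values of the 81 named genes kept their sign. Against shLuc, the 3 calls became 8 with the replicate number as a block (replicate block, all lower), 7 after a second quantile normalization (1 higher, 6 lower), 23 with array weights (5 higher, 18 lower) and 2 to 6 when 1 array was left out, the 6 without shApela_2 array 3. Deviations from the group means correlated between same-numbered shLuc and shApela_2 arrays at -0.01 (number 1), 0.67 (number 2) and 0.47 (number 3). The main fit did not take the numbers as pairs, although the arrays numbered 2 and 3 varied together. With the replicate block, 1775 genes had an unadjusted p under 0.05 against shLuc, beside 1151 in the main fit. Whether the numbers mark shared cultures or batches was not tested. Against shApela_1, the 189 calls (71 higher, 118 lower) became 653 with the replicate block, 1446 with array weights, 27 at an adjusted p under 0.01, and 19 to 222 when 1 array was left out. All 8 arrays but shApela_2 array 3 moved that count by over 1.5 times, to 115 or fewer. The split was 134 higher and 120 lower after a second quantile normalization and 38 higher and 125 lower after median centring. Signs turned for Pou5f1 (-0.036 after median centring, -0.035 to 0.057 with 1 array left out), Sox2 (0.016 with array weights, -0.053 to 0.031), Nanog (-0.024 after median centring, -0.0019 to 0.036), Mapre2 (0.021 after a second quantile normalization), Gm5662 (0.032 with array weights, -0.28 to 0.076) and Usp17la (-0.61 to 0.067). The cause was not tested. The small number of arrays limits the precision. Groups of 3 are too small for a test of single outlying arrays.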
